A study of Drosophila melanogaster with 3 samples.

Results

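Nuclear pore and nuclear lamina genes were examined for promoter occupancy by Stwl in fly embryos. The genes were chosen by symbol: every protein-coding gene whose name begins with Nup and a digit, together with Mtor, mbo, Gp210 and Ndc1 for the pore, and Lam, LamC, LBR, Ote, MAN1, bocks and koi for the lamina and inner nuclear membrane. That gave 32 genes, 25 of the pore and 7 of the lamina, out of 13945 protein-coding genes on the main chromosome arms. Mtor is listed in the annotation as Mgtor (FBgn0013756) and is called Mgtor here. The rule uses symbols only, and it was written with earlier results of these data known.

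The data came from chromatin immunoprecipitation with sequencing of whole Drosophila melanogaster embryos collected at 0 to 10 hours of development. The embryos were from 1 transgenic line carrying Stwl tagged with GFP at its C-terminus, and the tag was recovered with an antibody to GFP from chromatin sonicated to 200 to 800 bp. There were 3 biological replicates in 1 group and no second genotype or treatment, so the comparisons are between genes. Whole embryos mix cell types and stages, so a promoter occupied in few cells and one weakly occupied in many cannot be told apart, and the lists report the tagged protein only.

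The nuclear pore complex is a ring-shaped channel through the nuclear envelope that carries proteins and RNA between nucleus and cytoplasm. Its scaffold is made of the Y complex and the inner ring, its channel is lined by nucleoporins with flexible phenylalanine-glycine repeats, and filaments and a basket extend to the cytoplasm and the nucleoplasm. The lamina is a meshwork of lamin filaments beneath the inner nuclear membrane, tied to that membrane by LEM-domain proteins, the lamin B receptor and SUN-domain proteins. Stwl (stonewall) is a nuclear protein with a MADF DNA-binding domain that is needed in the female germline.

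Sequences under 6 of the pore and lamina summits are given as examples. They are the stretches outside exons in a window centred on the summit, for 4 of the strongest pore genes and 2 of the strongest lamina genes (Nup75, Nup62 and Ote are not shown), written 5′ to 3′ on the strand of the gene in the Release 6 assembly (dm6). Nup37 is chr3R:25247515-25247605 on the plus strand, mbo is chr3R:12679053-12679144 on the minus strand, and Nup93-2 is chr3R:14898373-14898461 on the minus strand. Nup98-96 is chr3R:23781622-23781685 on the minus strand, bocks is chr3R:9591147-9591267 on the minus strand, and Lam is chr2L:5542337-5542457 on the plus strand. Capitals mark matches, on either strand, to any of the 9 motifs spelled out with the motif counts.
Nup37: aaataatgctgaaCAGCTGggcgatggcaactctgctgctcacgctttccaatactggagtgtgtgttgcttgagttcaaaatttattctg
mbo: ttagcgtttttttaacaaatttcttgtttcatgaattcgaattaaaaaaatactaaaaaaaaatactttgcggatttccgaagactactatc
Nup93-2: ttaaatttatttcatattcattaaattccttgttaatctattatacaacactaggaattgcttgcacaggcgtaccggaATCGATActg
Nup98-96: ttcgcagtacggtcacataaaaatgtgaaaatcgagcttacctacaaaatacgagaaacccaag
bocks: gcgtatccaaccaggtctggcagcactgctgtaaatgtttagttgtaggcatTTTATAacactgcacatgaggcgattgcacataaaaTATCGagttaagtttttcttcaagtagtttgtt
Lam: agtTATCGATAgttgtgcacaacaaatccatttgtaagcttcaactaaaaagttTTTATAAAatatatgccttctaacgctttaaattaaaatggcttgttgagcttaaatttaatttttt
The Lam stretch holds a whole DNA replication-related element (DRE), the Nup93-2 stretch holds the DRE core, and the mbo and Nup98-96 stretches hold none of the 9 motifs.

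Most pore and lamina promoters carried a reproducible Stwl summit. A gene is called bound here if a summit of the authors' list that passed the irreproducible discovery rate (IDR) lay within 500 bp of one of its transcription start sites (TSSs). By that rule 25 of the 32 genes (78.1%, 95% Wilson interval 61.2 to 89.0%) were bound, against 5870 of 13945 protein-coding genes (42.1%). Among pore genes 20 of 25 (80.0%, interval 60.9 to 91.1%) were bound, and among lamina genes 5 of 7 (71.4%, interval 35.9 to 91.8%). The pore share was 8.57 percentage points above the lamina share, with a 95% Newcombe interval of -19.4 to 45.8, so no difference between the classes was detectable with 7 lamina genes. The direction of that difference rests on replicate 3: with calls rebuilt from summits shared by the strongest 7241 of replicates 1 and 2, 60% of pore genes and 71.4% of lamina genes were called (difference -11.4 points). Rebuilt from replicates 1 and 3, without replicate 2, the lamina count was 3 in place of 5. All these intervals cover counting error only, and neighbouring genes that share a summit are not independent.

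Both classes stood above all protein-coding genes in each list, while the order of pore and lamina genes varied. In the pooled list 23 pore and 6 lamina genes (90.6% of the 32) had a promoter summit, against 56.1% of all protein-coding genes. In replicate 1 the counts were 23 pore and 6 lamina genes, against 57.2% of all genes. In replicate 2 they were 22 pore and 6 lamina genes, against 55.6%. In replicate 3 they were 24 pore and 6 lamina genes, against 57.2%. The pooled and replicate lists hold 30000 peaks each, many of them weak, so each replicate was also cut to its 7241 strongest peaks, the length of the IDR list. That left 19 pore and 6 lamina genes in replicate 1 (40.9% of all genes), 19 and 6 in replicate 2 (41.3%), and 21 and 5 in replicate 3 (42.2%). In replicates 1 and 2 that is 76% of pore genes and 85.7% of lamina genes, the reverse of the order in the IDR list. In replicate 1 koi counts through a summit 454 bp from a TSS (rank 6773), while the summit within 150 bp of its IDR summit ranked 15764. In all, 31 of the 32 genes had a promoter summit in at least 1 replicate list and 26 had one in all 3.

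**Figure D1:**
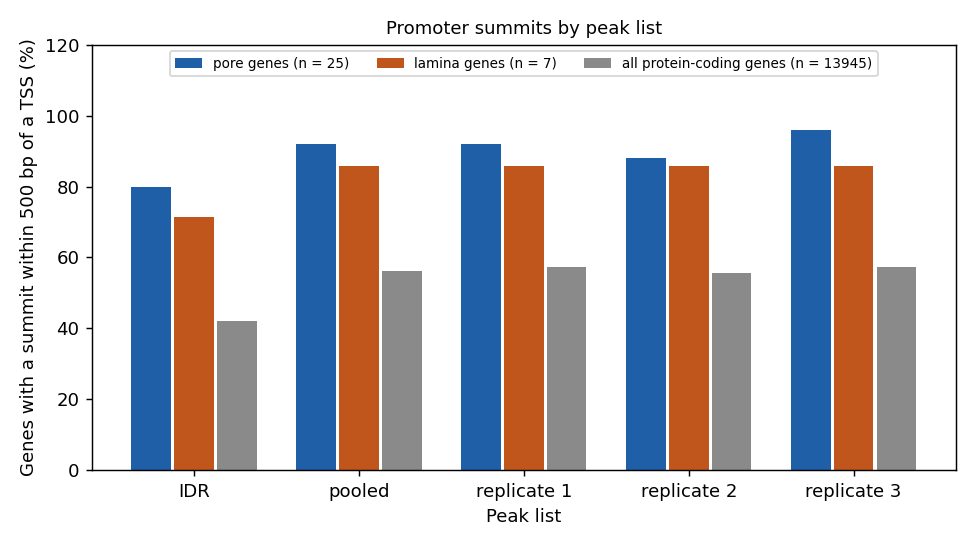
Share of genes (%) with a Stwl summit within 500 bp of a TSS, for pore genes, lamina genes and all protein-coding genes, in the IDR list, the pooled list and the 3 replicate lists. Both classes stand above all genes in every list, with 80.0% of pore genes, 71.4% of lamina genes and 42.1% of all genes in the IDR list.

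Occupied pore and lamina promoters were of ordinary strength. The median signal of the strongest summit was 594 at bound pore genes, 595 at bound lamina genes and 523 at all 5870 bound genes, in the authors' signal units. The range was 210 to 1221 for pore genes and 231 to 1138 for lamina genes, while the strongest summit at any bound gene reached 17416. By rank in the IDR list, where rank 1 is the strongest of 7241, 15 of 20 pore genes (75%) and 3 of 5 lamina genes (60%) lay in the stronger 50% of the list, against 65.8% of all bound genes. The middle 50% of bound pore genes ran from 404 to 719, that of all bound genes from 358 to 744. The plot of signal by gene shows 4 pore genes and 1 lamina gene above that middle range.

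**Figure D2:**
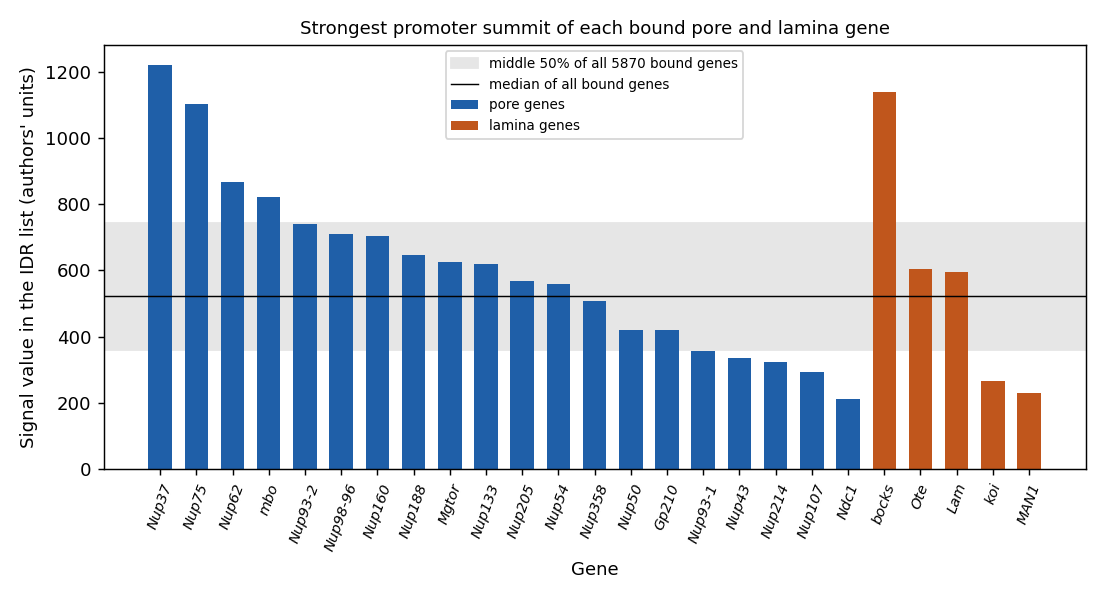
Signal value of the strongest IDR summit within 500 bp of a TSS (authors' units, linear axis from 0) for the 20 bound pore genes and the 5 bound lamina genes, strongest first. The line is the median of all 5870 bound genes (523) and the band their middle 50% (358 to 744); Nup37, Nup75, Nup62, mbo and bocks stand above the band.

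Of the Y complex, the outer scaffold of the pore, 7 of the 8 genes chosen by symbol were bound. Counts by role, here and below, cover only genes chosen by symbol. Other pore-associated genes, such as Sec13 (bound, signal 622) and Aladin (unbound), are outside them. The IDR and pooled lists share their signal values, but each replicate list has another scale, so replicates are compared by rank, rank 1 being the strongest of 30000. Nup37, a Y-complex subunit, had the strongest summit of all 32 genes, with a signal of 1221 at 113 bp upstream of its TSS. In the replicate lists this summit had signals of 172, 289 and 774 and ranks 456, 175 and 433 (mean 355 ± 156, SD, n = 3). Its promoter also held a weaker summit (signal 230) 89 bp downstream of the TSS, in the 5′ UTR. Nup75, a core scaffold subunit of the same complex, followed with a signal of 1103 at 79 bp upstream and ranks 570, 662 and 480 (mean 571 ± 91.0). In replicates 1 and 3 both ranked ahead of every other listed Y-complex gene, and in replicate 2 Nup133 came between them.

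Nup98-96 encodes a precursor that is cut into an FG-repeat nucleoporin and a Y-complex subunit. Its summit lay 4 bp upstream of the TSS with a signal of 711 and ranks 2185, 1598 and 1443. Nup160, the subunit at an arm of the Y, had a signal of 703 at 133 bp upstream and ranks 796, 968 and 1953. Nup133, which forms the stem of the Y, had a signal of 620 at 63 bp upstream, but its ranks of 5394, 484 and 2312 (mean 2730 ± 2482) differed 11.1-fold between replicates, with replicate 2 far stronger than replicate 1. The weaker pair was Nup43, with a signal of 335 at 73 bp upstream and ranks 3907, 5235 and 4670, and Nup107, with a signal of 293 at 39 bp upstream and ranks 6921, 4338 and 5100. Nup44A, the fly Seh1, was the unbound member: a summit 26 bp from its TSS appeared in replicate 1 alone (signal 62.6, rank 3822), and the nearest IDR summit was 26250 bp away.

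The inner ring, which anchors the scaffold around the channel, had 4 of 6 genes bound. Nup93-2 led with a signal of 740 at 29 bp upstream and ranks 1595, 663 and 1741. Nup188 had a signal of 647 at 14 bp downstream of its TSS, in its own 5′ UTR, and ranks 2154, 2245 and 1718. Nup205, a related scaffold protein, had a signal of 569 at 51 bp upstream, with rank 3764 in replicate 1, rank 1501 in replicate 3 and no matching summit within 150 bp in replicate 2. Nup93-1, the second Nup93 gene, had an IDR signal of 355. Replicate summits matched within 150 bp of that IDR summit had closely placed ranks of 3933, 4043 and 4422 (mean 4133 ± 257). The replicate 1 match lay more than 500 bp from the TSS. Within 500 bp, the strongest replicate 1 summit ranked only 9798, at 359 bp. The Nup93-1 IDR summit lay 449 bp upstream, the farthest of any bound member, and nearer to the neighbouring gene Clic. The Nup93 genes thus differed in both position and rank, and Nup93-2 ranked ahead of Nup93-1 in all 3 replicates.

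Nup35 and Nup154, the remaining inner-ring genes, were unbound but not empty. Nup35 had a pooled summit 29 bp from its TSS (signal 182, rank 7625), just below the weakest signal of the IDR list (194). Its strongest promoter summit ranked 7097 in replicate 2, at 258 bp, and 6885 in replicate 3, at 15 bp. Replicate 1 had no promoter summit there. Nup154 had a weaker pooled summit at 50 bp (signal 83.0, rank 15171). Its strongest replicate summits ranked 10870, 9788 and 13788 but lay 405, 253 and 42 bp from the TSS. They were not matched to the pooled summit and need not mark the same site. The nearest IDR summit to Nup154 lay 675 bp upstream at the start of RpL9, a ribosomal protein gene on the other strand.

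The central channel genes encode the FG-repeat proteins that form the permeability barrier, and 2 of 3 were bound. Nup62 had the third strongest pore summit, with a signal of 867 at 32 bp upstream of the nearest of its annotated starts, in the 5′ UTR of a longer transcript, and ranks 1818, 1348 and 780. Nup54 had a signal of 559 at 27 bp upstream, in the 3′ UTR of the adjoining gene CG43204, and ranks 1953, 3709 and 2166. Nup58 was unbound, with an IDR summit 569 bp upstream (signal 540), outside the distance used and within 500 bp of Vha13, a proton-pump subunit gene. Weak summits nearer its TSS ranked 11155 in replicate 2 and 15900 in replicate 3, and replicate 1 had none.

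All 3 listed genes of the cytoplasmic side were bound. The gene mbo, the fly counterpart of Nup88, had a signal of 822 at 32 bp upstream, replicate signals of 129, 175 and 514, and ranks 1040, 771 and 1247 (mean 1019 ± 239). No other protein-coding TSS lay within 500 bp of its summit. Nup358, the large SUMO ligase of the cytoplasmic filaments, had a signal of 506 at 59 bp upstream and ranks 4037, 1637 and 3299. Nup214, which docks export complexes, had a signal of 323 at 86 bp upstream and ranks 9025, 2905 and 5341, with replicate 1 weakest. It had a further summit (signal 238) 290 bp upstream. The mbo summit ranked ahead of those of Nup358 and Nup214 in every replicate.

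At the nuclear basket 2 of 3 genes were bound. Mgtor, which encodes the filament protein Megator (Tpr in vertebrates), had a signal of 626 at 55 bp upstream and ranks 2343, 1814 and 1909 (mean 2022 ± 282). A weaker IDR summit (signal 233) lay in an intron of Mgtor, 598 bp from the TSS. Nup50 had a signal of 421 at 14 bp upstream, with rank 3530 in replicate 1, rank 3794 in replicate 3 and no matching summit in replicate 2. Nup153, which ties the basket to the ring, was unbound although all 3 replicates held a summit within 500 bp (ranks 3936, 3514 and 9495). These replicate summits lay 60, 407 and 494 bp from the TSS and need not mark the same site. The pooled Nup153 promoter summit, at 382 bp, had a signal of 177 (rank 7812), below the IDR list. An IDR summit lay 604 bp upstream (signal 281) in an intron of CG9784, and another lay 8819 bp downstream in an intron of Nup153 itself (signal 213).

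Both listed transmembrane nucleoporin genes were bound, each with a signal under the median of all bound genes (523). Gp210 had a signal of 420 at 389 bp upstream, with ranks 3385, 2021 and 3826, and a further summit (signal 215) 157 bp upstream. Ndc1 had the lowest signal of any bound member, 210, at 23 bp upstream, with ranks 9509, 11664 and 6158. In replicates 1 and 2 the Ndc1 summit lay outside the strongest 7241.

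The lamin genes differed from each other, with 1 of 2 bound. Lam encodes the B-type lamin present in most cells, and its summit had a signal of 595 at 83 bp upstream of the TSS. In the replicates it had signals of 81.0, 139 and 376 and ranks 2629, 1429 and 2352 (mean 2137 ± 628). A weaker Lam summit (signal 234) lay 59 bp downstream of another annotated start of Lam, in the 5′ UTR. LamC, the A-type lamin gene, lies inside ttv and was the one member with no promoter summit in any list: the nearest summits were 25455 bp away in the IDR list, 15203 bp in the pooled list, and 8485, 7726 and 5995 bp in replicates 1, 2 and 3. With 1 gene of each lamin type, this is a description of a pair of loci.

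Of the inner nuclear membrane genes 4 of 5 were bound. The gene bocks (bocksbeutel, a LEM-domain protein) had the second strongest summit of all members, with a signal of 1138 at 205 bp upstream, replicate signals of 162, 226 and 750, and ranks 535, 362 and 468 (mean 455 ± 87.2). Ote (otefin, a LEM-domain protein needed by germline stem cells) had a signal of 603 at 183 bp upstream and ranks 1476, 2256 and 2271. Both of these summits were nearer to another gene, CG8312 for bocks and pen-2 for Ote. MAN1, the third LEM-domain gene, had a signal of 231 at 119 bp downstream, in its 5′ UTR, and ranks 6362, 4704 and 6958. The LEM-domain genes therefore spanned nearly the whole range of member signals, bocks ranking above MAN1 in all 3 replicates.

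The SUN-domain gene koi (klaroid), which links the lamina to the cytoskeleton, had a signal of 265 at 80 bp upstream. Replicate summits within 150 bp of that summit ranked 15764, 4274 and 5488, with replicate 1 far weaker than the others. A stronger replicate 1 summit (signal 37.9, rank 6773) lay 454 bp from a TSS of koi. LBR was unbound: its pooled summit, 424 bp from the nearest TSS, had a signal of 154 (rank 8639). The strongest replicate summits ranked 4781, 5863 and 13839, at 154, 288 and 75 bp. They were not matched to the pooled summit. If each summit was given only to the gene with the nearest TSS, 17 pore genes and 3 lamina genes stayed bound, and the lamina median was 265, since bocks and Ote were lost. The plot of replicate ranks shows these patterns gene by gene.

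**Figure D3:**
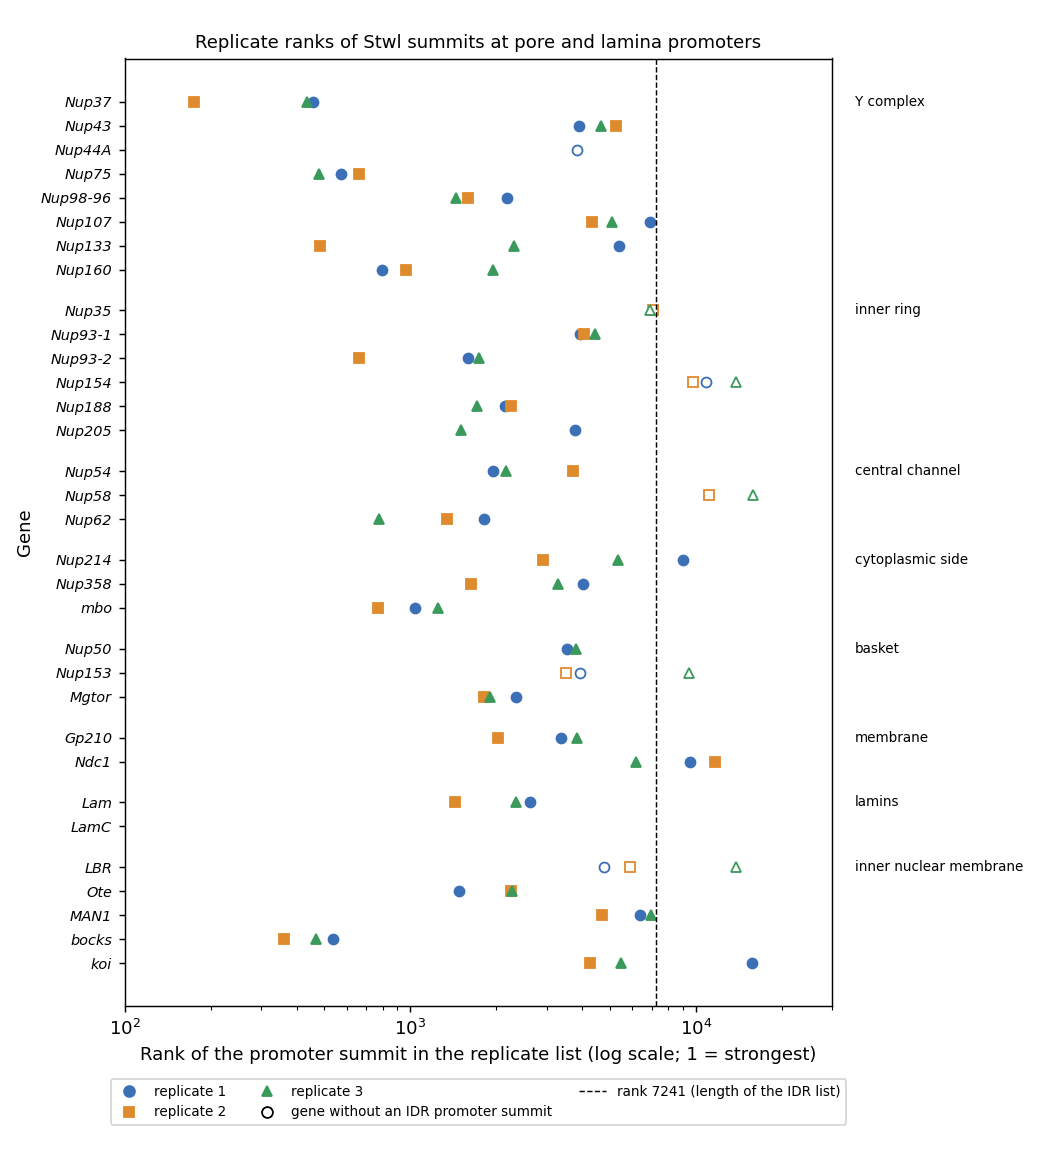
Rank of the promoter summit in each replicate list (log axis, 1 = strongest of 30000) for the pore and lamina genes, grouped by role; open symbols are genes without an IDR promoter summit and the dashed line is rank 7241. For bound genes the points are replicate summits within 150 bp of the strongest IDR summit. For the other genes they are the strongest summits within 500 bp of a TSS in each list, which can differ in position. The replicate 1 point of Nup93-1 lies more than 500 bp from its TSS. Nup37, Nup75 and bocks lie far to the left in all 3 replicates, and LamC has no point. Nup133, Nup214 and koi show the widest spread among bound genes matched in all 3 replicates. Nup205 and Nup50 have no replicate 2 point.

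Agreement between replicates at these promoters was like that at all bound promoters. A summit within 150 bp was found in all 3 replicates for 23 of 25 bound members (92%), against 92.6% of all bound genes, and 20 of 25 (80%) were among the strongest 7241 of every replicate, against 80.4%. Among genes matched in all 3 replicates, the ratio of the largest to the smallest replicate rank was compared. Its median was 1.89 for pore genes, 1.54 for lamina genes and 1.86 for all bound genes. Only Nup133, Nup214 and koi exceeded a ratio of 3 among the 23 members so matched. Nup205 and Nup50 had no matching summit in replicate 2, so the ratio does not measure their disagreement.

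Summits lay close to the start sites and mostly on the upstream side. The median distance was 53 bp at pore genes, 119 bp at lamina genes and 76 bp at all bound genes. The strongest summit was upstream of the TSS at 19 of 20 pore genes (95%), 4 of 5 lamina genes (80%) and 90.2% of all bound genes. It lay within 100 bp of the TSS at 16 pore genes (80%) and 2 lamina genes (40%), against 59.9% of all bound genes. Of the 25 strongest summits, 21 were intergenic, 3 lay in a 5′ UTR (Nup188, Nup62 and MAN1) and 1 lay in the 3′ UTR of a neighbour. Peak widths ran from 155 to 498 bp with a median of 314 bp, against 320 bp for the IDR list.

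**Figure D4:**
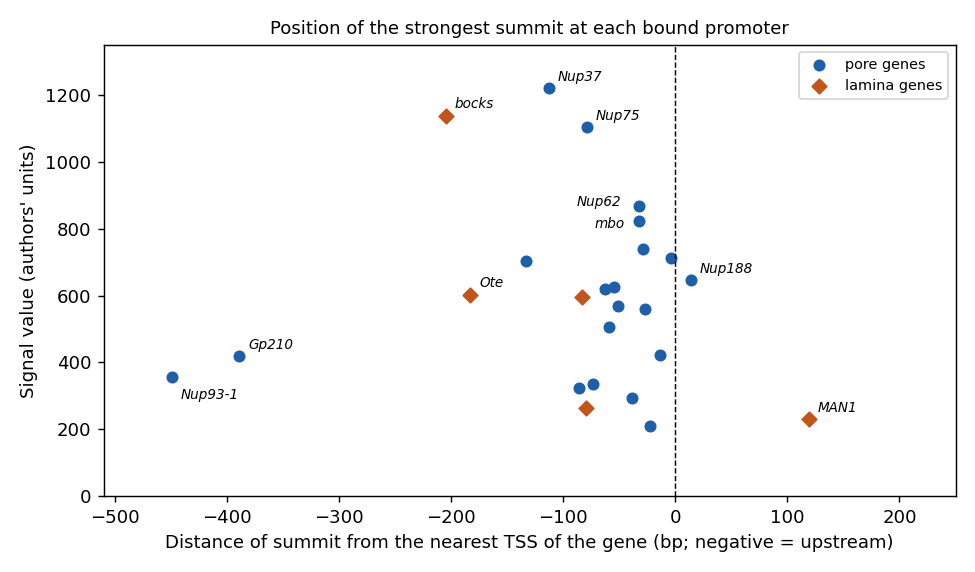
Signal (authors' units) of the strongest IDR summit at each bound pore and lamina gene against its distance from the nearest TSS of that gene (bp, negative = upstream). Most points cluster within 100 bp upstream; Gp210 and Nup93-1 lie farthest upstream and MAN1 lies 119 bp downstream.

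Pore and lamina genes very often start back to back with another gene. A divergent protein-coding partner, on the opposite strand with its TSS up to 1000 bp upstream, was present at 25 of the 32 genes (78.1%), against 36.2% of all protein-coding genes. It was present at 19 of 25 pore genes (76%) and 6 of 7 lamina genes (85.7%). Among genes with such a partner 19 of 25 members (76%) were bound, against 70.9% of all such genes, a share near the background. Among genes without one 6 of 7 members were bound, against 25.7% of all such genes, and these 6 were pore genes. The part of the divergent arrangement in the count of bound members was not tested.

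The gaps to the partner TSS ran from 26 bp (Nup153 and CG9784) to 640 bp (Nup58 and Vha13). A few partners of known role are given here as examples, chosen after their values were seen. Nup37 starts 144 bp from RpS27, a ribosomal protein gene, and its strongest summit lay nearer to RpS27. Nup160 lies 210 bp from Csl4, an RNA exosome subunit gene, and Nup75 lies 115 bp from MED9, a Mediator subunit gene. Lam lies 166 bp from Hel25E, an RNA helicase gene of messenger RNA export, and its strongest summit was equally far from both starts. MAN1 lies 31 bp from Chi, which encodes a LIM-domain cofactor. Of 26 partner genes 23 were bound by the same rule, against 70.9% of all genes with a divergent partner. At every bound member with a partner, the member's strongest summit also lay within 500 bp of that partner. The same summit thus called both genes, and their agreement is largely set by the distance rule. The unbound partners were ACC, Rip11 (beside Nup35) and Tango11 (beside LBR). ACC spans the whole of Nup44A and has a start 145 bp upstream of a Nup44A TSS. Nup44A, Nup35 and LBR were unbound too.

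A shared summit cannot be assigned to either gene from these lists. At 14 of 20 pore genes (70%) and all 5 lamina genes the strongest summit also lay within 500 bp of another protein-coding gene, against 56.6% of all bound genes. For 18 of the 25 bound members the member itself had the nearest TSS. No other protein-coding TSS lay within 500 bp of the summit at Nup107, Nup54, Nup358, mbo, Mgtor and Ndc1, all of them pore genes, with signals from 210 to 822. Which gene such a summit acts on, if any, was not tested. Nup37 and Nup358 are neighbours on 3R, 247 bp apart with no gene between them, and each had a summit of its own.

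Short motifs of housekeeping promoters were frequent at the member summits. The windows reached 100 bp to either side of the strongest summit, and both strands were read. Each share is set beside that of all 4810 IDR promoter summits and of windows 1000 bp to either side of them. The 4810 include weaker second summits of a promoter, while members enter by their strongest summit only, so the sets are not fully alike. The DRE (TATCGATA, the site of the factor Dref) was present at 5 of 20 pore genes (Nup75, Nup188, Nup54, Nup50 and Mgtor) and 2 of 5 lamina genes (Lam and Ote), against 16.3% of promoter summits and 0.582% of flanks. Its core (ATCGAT), which lies within the DRE, was present at 10 pore and 3 lamina genes, against 33.6% and 7.34%. The BEAF core (CGATA), which also lies within the DRE, was present at 10 pore genes and all 5 lamina genes, against 54.5% and 22.3%. The M1BP core (GGTCACAC) was present at Nup43, Nup160, Nup93-2, Nup62, Ndc1 and bocks (24% of the 25), against 14.0% and 0.561%. The M1BP matches of Nup93-2 and bocks lie outside the stretches printed above.

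Of the remaining motifs, the TATA box was somewhat above its share at promoter summits and the rest were below theirs. The TATA box, searched as TATAAA, was present at 9 of 25 members (36%, against 30.6% of promoter summits and 17.8% of flanks), and the E-box (CAGCTG) at 4 (16%, against 17.4% and 11.7%). GAGAG, the core of GAGA-factor sites, was present at 2 (8%, against 17.2% and 22.3%), and TCAGTT, an initiator form, at 1 (4%, against 12.4% and 11.1%). The Zelda motif (CAGGTAG), which marks many early embryonic enhancers, was present at 0 of 25, against 0.541% and 1.47%. In a grouping made after these values were seen, the DRE core or the M1BP core was present at 17 of 25 members (68%), against 44.4% of promoter summits and 7.85% of flanks. The 8 with neither were Nup37, Nup98-96, Nup107, Nup93-1, Nup214, mbo, Gp210 and MAN1, which include the strongest summit of all. With 25 windows 1 gene is 4 percentage points, and no test was made. A match is only a string in a window, and a missing match says nothing about the factor.

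**Figure D5:**
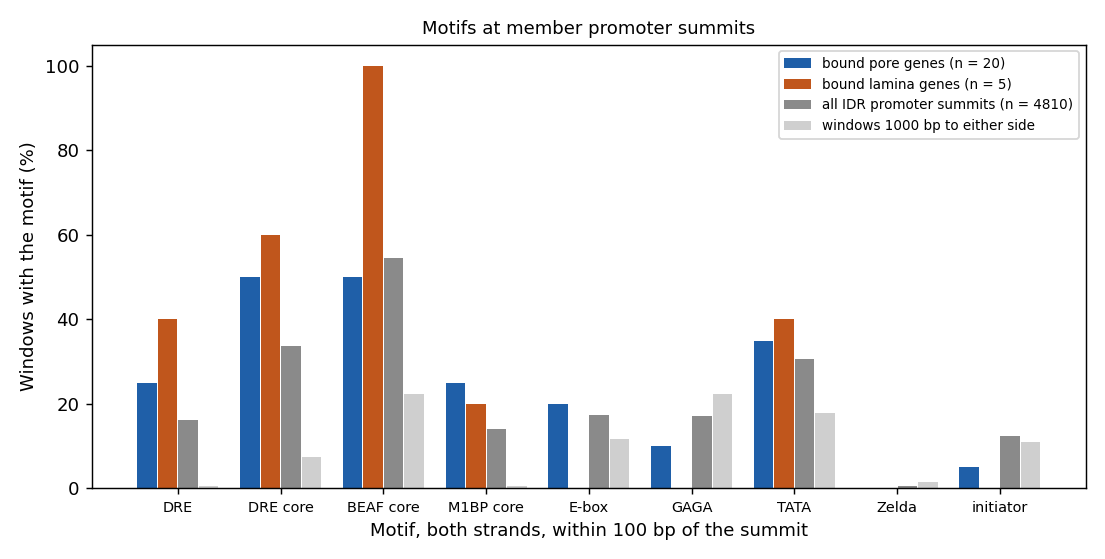
Share (%) of windows within 100 bp of a summit that hold each motif on either strand, for 20 bound pore genes, 5 bound lamina genes, all 4810 IDR promoter summits and windows 1000 bp to either side of those summits. Member genes enter by their strongest summit only, while the 4810 include weaker second summits. The DRE core is present at 10 of 20 pore genes and 3 of 5 lamina genes, against 33.6% of promoter summits; each lamina gene weighs 20 points.

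Most genes that work with the pore were bound too. Of 26 transport and pore-associated genes found in the annotation, 23 were bound, against 42.1% of all genes. Their median signal was 451, below the 523 of all bound genes. Elys and Ranbp21, both on X, had the same signal (421) and may share a summit. The strongest were emb (1740), the exportin Crm1, RanBP3 (1081), an export cofactor, RanGAP (936), the GTPase-activating protein of Ran, and cdm (828), an importin. Ran itself, the pore gene Aladin and the messenger RNA exporter gene sbr were unbound, though Aladin and sbr had promoter summits in all 3 replicate lists and Ran in 2. Of 6 other nuclear-envelope genes 4 were bound: klar (974), a KASH-domain partner of SUN proteins, kuk (585), Torsin (454) and baf (331). Msp300 was unbound with promoter summits in all 3 replicate lists, and spag4, a SUN-domain gene, was unbound with a promoter summit in 0 of 3.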

How the data were processed

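The authors deposited a peak list per replicate, a pooled list and a list that passed IDR. Each gives per peak the authors' signal value, the −log10 q-value, and the summit; per the deposited text files the replicate and pooled lists were called against a control library. Aligner, peak caller and IDR cut-off: not given in the sources used here. Read depth is unknown. Genes and TSSs were taken from the Ensembl annotation BDGP6.54 (release 115) on 2L, 2R, 3L, 3R, 4 and X, and sequence from the Release 6 assembly (dm6); coordinates count from 1.

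Summits were assigned to every gene with a TSS at most 500 bp away, and the strongest summit of each gene is reported. Replicate summits were matched within 150 bp. Python 3.11.15, pandas 2.3.3, numpy 2.4.6 and statsmodels 0.14.6 were used, and the assignment of summits was checked on simulated summits. No test was run: shares carry 95% Wilson intervals and the difference a Newcombe interval. All members are named, grouped by role. Sequences are of the strongest bound members not on 2R, with exons left out. The members, lists and motifs were chosen with earlier results of these data known. The 10 alternatives were other distances, lists, strength limits and gene assignments and leaving out each replicate.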

Additional observations from a re-analysis of the deposited data

How the results depend on the processing

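Under the 10 alternatives the count of bound pore genes ran from 15 to 23, against 20 in the report, and moved by less than 1.5-fold under each. The lamina count of 5 moved to 3 with the stronger 50% of the IDR list, and to 3 when summits went to the nearest gene only, which also moved the lamina median signal to 265. Leaving out 1 replicate at a time, with calls rebuilt from summits that the remaining pair shared among their strongest 7241, gave 15 to 17 pore genes and 3 to 5 lamina genes; the 3 came without replicate 2. The pore share minus the lamina share ran from -11.4 to 25.1 percentage points over those, and was reversed (-11.4) without replicate 3, where pore genes were at 60% and lamina genes at 71.4%; the cause was not tested. Under the other alternatives it ran from 4.57 to 25.1. Median signals are not given for left-out replicates, because those calls rest on replicate lists, whose signal scales differ from that of the IDR list.

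Bound under all 10 were Nup37, Nup98-96, Nup133, Nup93-2, Nup188, Nup54, Nup62, Nup358, mbo, Mgtor, Gp210 and Lam (12 genes), and unbound under all 10 were Nup44A and LamC. Nup93-1 (449 bp) and Ndc1 (signal 210) lay just inside the limits of the call, and Nup58 (569 bp) and Nup35 (pooled signal 182) just outside. With 7 lamina genes, each moves the lamina share by many points, and the unknown depth sets what a missing summit can mean.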
